A study of Mus musculus with 6 samples.

Results

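Lrp5, Lrp6, Ror1, Ror2, Ryk, Dvl1, Dvl2 and Dvl3 encode the Wnt co-receptors and the Dishevelled adaptors of the mouse, and they were taken by gene symbol as 8 of the 20033 genes in the deposited table. Expression had been measured by RNA sequencing in the mesonephros, the transient embryonic kidney that carries the Wolffian duct, of male embryos at E12.5, a stage in days of gestation. The study used 3 embryos labelled Wnt9b knockout (Wnt9b-/-, a global loss of this Wnt ligand) and 3 labelled control, with 1 library per embryo, to ask how Wnt9b bears on the Wolffian duct and on androgens. The controls are Heterozygous in the genotype field and Wnt9b+/+ in the design text, so it is not known whether they carry 1 mutant allele. Strain, litter and batch are not given in the labels, and each p-value measures only the spread between these embryos.

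Wnt ligands bind Frizzled receptors together with a co-receptor. Lrp5 and Lrp6 are the co-receptors of the branch that stabilises beta-catenin, whereas Ror1, Ror2 and Ryk are single-pass receptors best known for responses to Wnt5a and for cell polarity. The Dishevelled proteins bind Frizzled inside the cell and serve both branches. In the later mouse kidney, Wnt9b from the duct epithelium acts on the mesenchyme beside it through beta-catenin, and it has also been linked to the orientation of tubule cells.

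All 8 genes were expressed in every library, and none passed the test between knockouts and controls. The lowest value was 28.6 TPM (a level per length of transcript, scaled to the same sum in each library) and the highest was 101 TPM. The 5 co-receptor genes had a lower mean in knockouts than in controls, and the 3 Dishevelled genes had a higher mean in knockouts. By limma's moderated test on log2(TPM + 1), 0 of the 8 genes had an adjusted p under 0.05, where 0.444% of the 17577 genes tested did (78 genes, with 0.131% higher and 0.313% lower in knockouts). By limma-voom on reads recovered from the TPM, 0 of the 8 passed, against 1.62% of all genes tested. Before adjustment 1 of the 8 genes, Ror1, had p under 0.05, against 11.3% of all genes tested. In the authors' deposited table, which calls 3.55% of the genes it gives an adjusted p, 0 of the 8 genes passed and 1, again Ror1, had p under 0.05. Knockouts and controls did not overlap for Ror1 and Ryk, both lower in knockouts, and overlapped for the other 6; over all genes tested, 8.49% had all knockouts lower and 8.14% all knockouts higher. The 95% intervals of the ratio of knockout to control on the TPM + 1 scale spanned 0.679 (the lower bound of Ror2) to 1.29 (the upper bound of Dvl1).

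**Figure D1:**
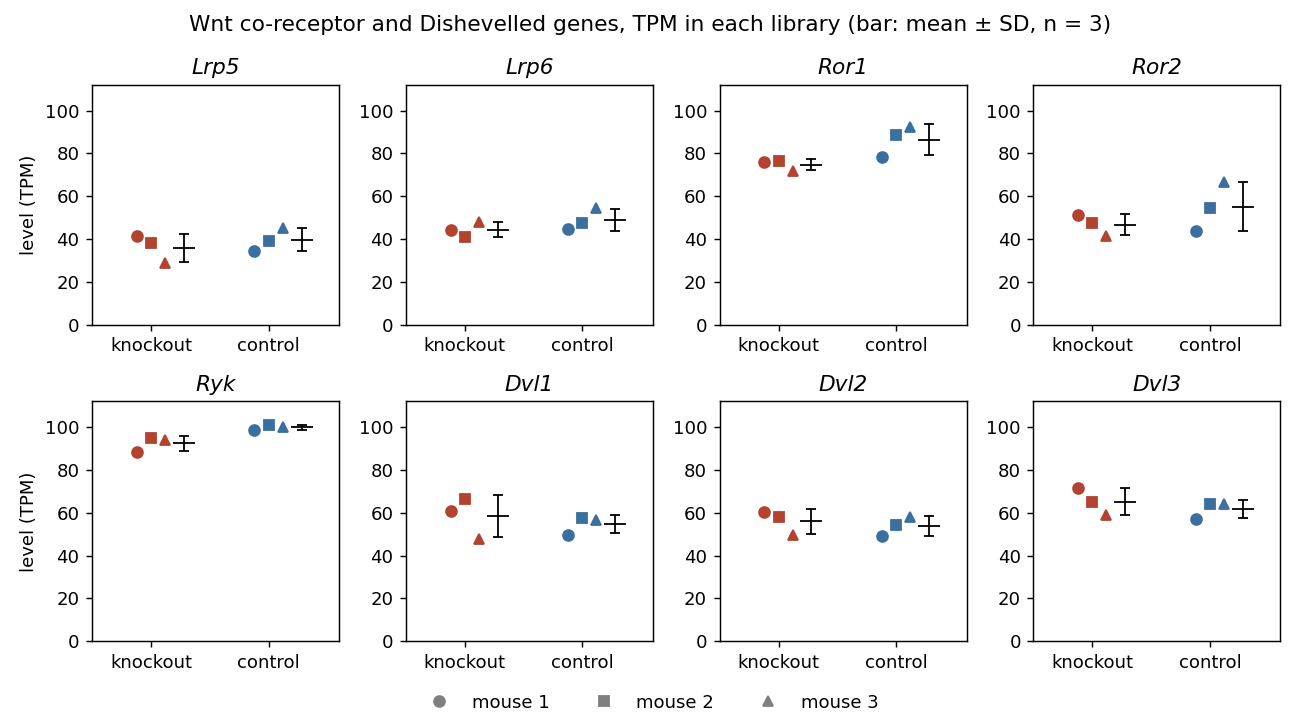
Level of each gene in TPM (vertical axis, from 0) in 3 knockout and 3 control libraries. The symbol gives the mouse number, for which the labels state no pairing, and the bar is the mean with its SD (n = 3). The libraries of the groups are separate for Ror1 and Ryk, with knockouts lower, and overlap in the other 6 panels.

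The targeted gene and the tissue were checked first. Wnt9b (ENSMUSG00000018486) had 23.4, 19.2 and 19.0 TPM in the knockout libraries, against 24.9, 26.4 and 34.0 TPM in the control libraries. Every knockout was below every control, but the difference did not pass (log2 difference -0.44, SE 0.14, limma adjusted p = 0.266). In contrast, Wnt9b passes in the authors' deposited table, with a log2 value of -0.45 and an adjusted p of 0.0263. Reads from exons outside a deletion would still count toward a gene's TPM, so this is a weak check of the knockout label. Whether this holds for the allele used here was not tested. The duct epithelium markers Pax2, Pax8, Gata3, Ret, Cdh1, Epcam and Emx2 all passed the filter on low values, and these 7 summed to 315 to 377 TPM in knockouts, against 353 to 397 TPM in controls. Mesenchymal markers summed to 2228 to 2391 TPM in knockouts and 2379 to 2648 TPM in controls, with Tcf21 higher and Pdgfrb lower in knockouts (limma adjusted p = 0.0197 and 0.0137). Of 9 gonadal somatic markers in the table, 7 were tested and 3 were higher in knockouts (Gata4, Nr5a1 and Inhbb, limma adjusted p = 0.0354, 0.0281 and 0.0281). Their sum was 129 to 225 TPM in knockouts and 91.6 to 104 TPM in controls, with every knockout above every control, and none of the markers was at 0 in all libraries. Endothelial markers summed to 272 to 307 TPM in knockouts and 329 to 351 TPM in controls, with 0 of 5 past the test. Coelomic epithelium markers summed to 281 to 302 TPM in knockouts and 251 to 275 TPM in controls, and erythroid markers to 16309 to 18263 TPM in knockouts and 13060 to 17294 TPM in controls. No marker of these lists, nor of the macrophage, neural crest, germ cell and muscle lists, passed. The part of these marker levels in the values below was not tested. In whole tissue, fewer cells of a type and less RNA per cell cannot be told apart.

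Lrp5 and Lrp6, the paired co-receptors whose phosphorylated tails recruit Axin, overlapped between the groups. Lrp5 (ENSMUSG00000024913) had 41.4, 37.9 and 28.6 TPM in knockouts 1 to 3, against 34.5, 39.0 and 45.2 TPM in controls 1 to 3. Knockout 3 was the lowest of the 6 libraries and control 3 the highest. The means were 36.0 ± 6.60 TPM in knockouts and 39.6 ± 5.38 TPM in controls (SD, n = 3 each), with a log2 difference of -0.14 (SE 0.15, 95% interval -0.49 to 0.20, limma adjusted p = 0.786). Without knockout 3 the difference was 0.0096, so its sign rests on that library. Lrp6 (ENSMUSG00000030201) had 44.2, 40.9 and 47.9 TPM in knockouts, against 44.9, 47.4 and 54.6 TPM in controls. Knockout 3 lay above controls 1 and 2, and control 3 was again the highest. Lrp6 averaged 44.4 ± 3.50 TPM in knockouts and 49.0 ± 5.06 TPM in controls (SD, n = 3 each; log2 difference -0.14, SE 0.098, 95% interval -0.36 to 0.086, limma adjusted p = 0.664).

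Ror1 and Ror2, receptor tyrosine kinases with a Frizzled-like extracellular domain, both had a lower mean in knockouts, and neither difference passed. Ror1 (ENSMUSG00000035305) had 76.1, 76.6 and 71.6 TPM in knockouts, against 78.5, 88.6 and 92.2 TPM in controls. The knockouts were close together, and the nearest control, control 1, was just above them. The means were 74.8 ± 2.75 TPM in knockouts and 86.4 ± 7.13 TPM in controls (SD, n = 3 each), a ratio of 0.869 (95% interval 0.768 to 0.983 on the TPM + 1 scale). The log2 difference of -0.20 (SE 0.078) was under 0.05 before adjustment (0.0303) and not after it (limma adjusted p = 0.376). The log2 value of Ror1 in the authors' deposited table is -0.20, with an adjusted p of 0.230. Ror2 (ENSMUSG00000021464) had 51.3, 47.5 and 41.4 TPM in knockouts, against 44.0, 54.6 and 66.8 TPM in controls. Control 1 lay among the knockouts, and the controls spread 1.52-fold from lowest to highest, the widest range of any of the 8 genes in either group. Ror2 averaged 46.7 ± 4.98 TPM in knockouts and 55.1 ± 11.4 TPM in controls (SD, n = 3 each; log2 difference -0.22, SE 0.15, 95% interval -0.56 to 0.12, limma adjusted p = 0.647). Without control 3 its difference was -0.072, and without control 1 it was -0.37. In TPM summed over the pair, knockouts had 122 ± 7.53 and controls 142 ± 18.3 (SD, n = 3 each). Knockouts 1 and 2 were above control 1.

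The 250 bases before the start of each Ror gene are shown because Ror1 had the smallest p of the 8 genes and Ror2 is its paralog, and because beta-catenin acts on genes through TCF and LEF factors. The sequences are RefSeq's on build GRCm38.p6, 5′ to 3′ along the gene, at chr4:100095541-100095790 (plus strand) for Ror1 and chr13:53286125-53286374 (minus strand) for Ror2. Capitals mark the TCF/LEF core searched for, CTTTGA or CTTTGT on either strand.
Ror1: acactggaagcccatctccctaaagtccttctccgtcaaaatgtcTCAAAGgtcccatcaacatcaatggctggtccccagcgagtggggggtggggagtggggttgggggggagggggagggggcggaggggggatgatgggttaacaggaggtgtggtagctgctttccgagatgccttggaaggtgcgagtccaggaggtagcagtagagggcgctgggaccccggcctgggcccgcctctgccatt
Ror2: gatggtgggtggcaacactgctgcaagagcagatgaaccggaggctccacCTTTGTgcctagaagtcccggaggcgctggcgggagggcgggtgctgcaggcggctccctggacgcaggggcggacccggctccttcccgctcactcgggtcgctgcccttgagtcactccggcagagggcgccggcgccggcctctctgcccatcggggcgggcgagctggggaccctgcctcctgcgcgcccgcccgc
Ror1 held 1 match, on the opposite strand and beginning 205 bases before the gene's start, and Ror2 held 1, beginning 200 bases before it. Of the 8 genes 6 matched the promoter table, and the windows of Ryk, Dvl1, Dvl2 and Dvl3 held no match. Over 32851 windows of the same length, 27.6% held the core, so 2 of 6 is a description and says nothing of binding.

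Ryk (ENSMUSG00000032547), a Wnt receptor with an inactive kinase domain, had 88.5, 95.2 and 94.0 TPM in knockouts, against 98.5, 101 and 100.3 TPM in controls. The highest knockout was below the lowest control, and the controls were the tightest group of any of the 8 genes, with a coefficient of variation of 1.23%. Counting error at their recovered reads is at most 1.52% to 1.66%, so it may be as large as this spread. The means were 92.5 ± 3.55 TPM in knockouts and 99.9 ± 1.23 TPM in controls (SD, n = 3 each), with a log2 difference of -0.11 (SE 0.060, 95% interval -0.25 to 0.028, limma adjusted p = 0.567).

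The Dishevelled genes, whose proteins carry the signal from Frizzled to the beta-catenin destruction complex and to the cytoskeleton, overlapped between the groups. Dvl1 (ENSMUSG00000029071) had 61.1, 66.6 and 47.9 TPM in knockouts, against 49.7, 57.6 and 56.6 TPM in controls. Knockouts 1 and 2 were above every control and knockout 3 was below every control. Dvl1 averaged 58.5 ± 9.62 TPM in knockouts and 54.6 ± 4.26 TPM in controls (SD, n = 3 each; log2 difference 0.087, SE 0.12, 95% interval -0.20 to 0.37, limma adjusted p = 0.850). Without knockout 2 the difference was -0.012. Dvl2 (ENSMUSG00000020888) had 60.5, 58.2 and 49.6 TPM in knockouts, against 49.2, 54.4 and 58.2 TPM in controls. Knockout 1 was the highest library and control 1 the lowest. Dvl2 averaged 56.1 ± 5.75 TPM in knockouts and 53.9 ± 4.53 TPM in controls (SD, n = 3 each; log2 difference 0.054, SE 0.099, 95% interval -0.17 to 0.28, limma adjusted p = 0.889). Its sign turned without knockout 1 (-0.0027) and without control 1 (-0.0098). Dvl3 (ENSMUSG00000003233) had 71.7, 64.9 and 59.1 TPM in knockouts, against 57.1, 64.3 and 63.9 TPM in controls. Knockouts 1 and 2 were above every control, and knockout 3 lay between the controls. Dvl3 averaged 65.2 ± 6.30 TPM in knockouts and 61.8 ± 4.09 TPM in controls (SD, n = 3 each; log2 difference 0.075, SE 0.090, 95% interval -0.13 to 0.28, limma adjusted p = 0.817). In GENCODE's mouse annotation Dvl2 shares 1151 exon bases with Acadvl on the opposite strand and Dvl1 shares 36 with Tas1r3. Whether reads were counted by strand is not known, so the genes cannot be told apart in those stretches. Acadvl had 27.1 ± 4.09 TPM in knockouts and 29.3 ± 2.58 TPM in controls (SD, n = 3 each).

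**Figure D2:**
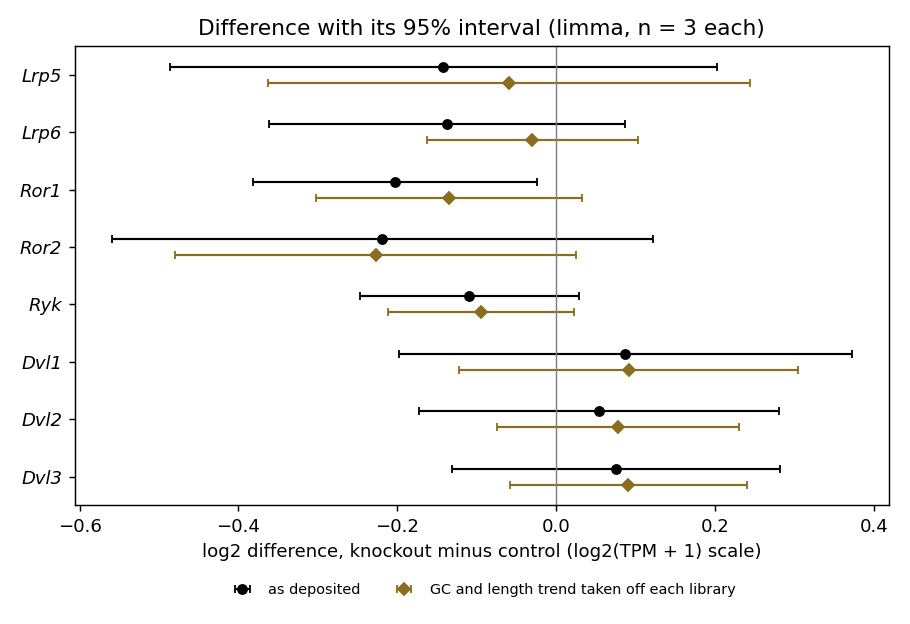
Log2 difference of each gene, knockout minus control, on the log2(TPM + 1) scale (horizontal axis) with limma's 95% interval, from the deposited TPM (black circles) and after a trend on GC content and length was taken off each library (brown diamonds). Of the 16 intervals only that of Ror1 from the deposited TPM, -0.38 to -0.025, leaves out 0.

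Between the groups the order of mean levels was much the same. By mean TPM the order in knockouts was Ryk, Ror1, Dvl3, Dvl1, Dvl2, Ror2, Lrp6 and Lrp5. In controls Ror2 stood between Dvl3 and Dvl1, and the other genes kept that order. Ryk was above Ror1 without overlap in both groups, and Ror1 was above Dvl3 without overlap in controls; every other neighbour in either order overlapped. Ryk was at the 89.4th percentile of the tested genes by mean TPM and Lrp5, the lowest of the 8, at the 70.5th.

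Mean shares of the paralogs in their family differed by less than the SD between replicates. Lrp6 made up 51.7%, 51.9% and 62.6% of the summed TPM of Lrp5 and Lrp6 in knockouts, against 56.5%, 54.9% and 54.7% in controls. Knockout 3 stood above the other 5 libraries, as the library with the lowest Lrp5, and the means were 55.4 ± 6.27% in knockouts and 55.4 ± 0.995% in controls (SD, n = 3 each). Ror2 made up 40.3%, 38.3% and 36.6% of the Ror pair in knockouts, against 35.9%, 38.1% and 42.0% in controls, with overlap. The Dishevelled family was the most even. Dvl1, Dvl2 and Dvl3 held on average 32.4%, 31.2% and 36.4% of its TPM in knockouts and 32.1%, 31.7% and 36.3% in controls. The summed Dishevelled level was 193, 189.7 and 157 TPM in knockouts, against 156, 176 and 179 TPM in controls, so that knockout 3 and control 1 were the low libraries.

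**Figure D3:**
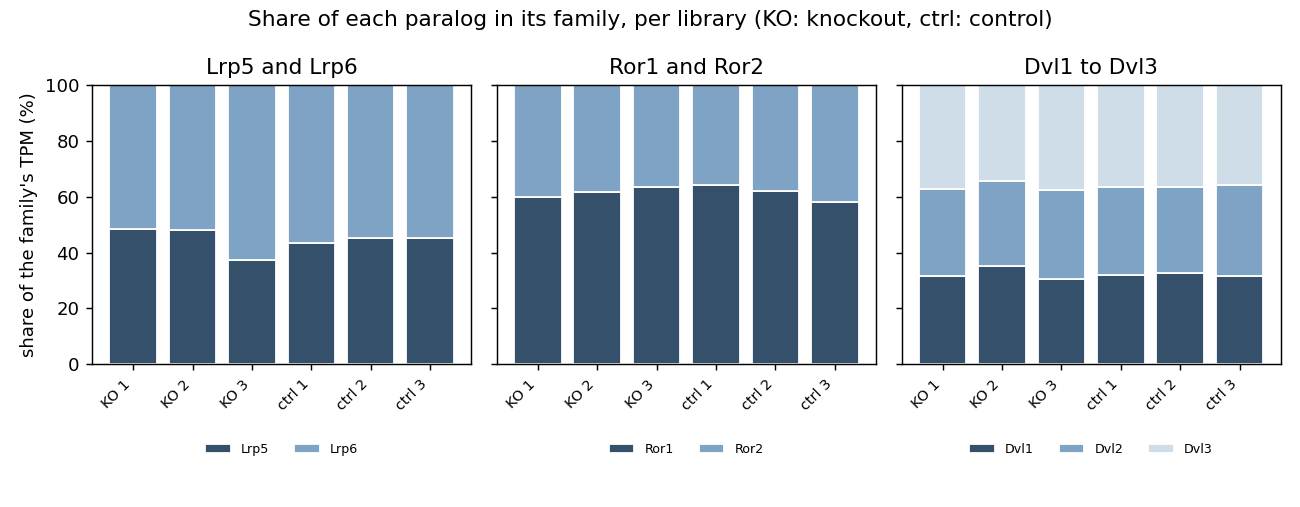
Share of each paralog in the summed TPM of its family (vertical axis, percent) in each knockout (KO) and control (ctrl) library. Lrp5 is at 37.4% of its pair in knockout 3, while each of the Dishevelled shares lies between 30.6% and 37.7% in all 6 libraries.

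The same libraries were low or high for many of the 8 genes. Control 1 was the lowest control for 8 of the 8 genes, and knockout 3 the lowest knockout for 6 of the 8. Control 3 was the highest control for 5 genes and control 2 for 3, while knockout 1 was the highest knockout for 4. These counts were not taken over all tested genes, so they cannot show a trait of these 8 genes. Over genes detected in every library, the median-of-ratios scale factor was 0.978, 1.018 and 1.029 in controls 1 to 3. In knockouts 1 to 3 it was 0.998, 0.986 and 1.022. By this factor control 1 was also the lowest control, while knockout 3 was the highest knockout. The median coefficient of variation over the 8 genes was 9.96% in knockouts and 8.32% in controls. Over the 6074 tested genes with a mean of 25 to 150 TPM it was 7.85% in knockouts and 6.26% in controls.

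These libraries also differed in how a gene's value moved with the GC content and length of its transcript. Genes were split into 5 equal classes by GC content, and each value was taken as its log2 deviation from the gene's mean over the 6 libraries. In the class of highest GC content the median deviation was 0.083, 0.056 and -0.081 in knockouts 1 to 3, against -0.065, -0.0031 and 0.026 in controls 1 to 3. In the class of lowest GC content it was -0.066, -0.070 and 0.095 in knockouts, against -0.023, 0.034 and 0.038 in controls. Knockout 3 therefore ran the other way from knockouts 1 and 2. In the class of longest transcripts the median deviation was -0.030, -0.11 and 0.037 in knockouts, against -0.049, 0.044 and 0.11 in controls. Of the 8 genes, 5 fell in the upper 2 classes of GC content (Ror2, Dvl1, Dvl2, Lrp5 and Dvl3) and 7 in the upper 2 classes of length, all but Ryk. Their transcripts ran from 46.0% GC in Lrp6 to 59.3% GC in Dvl1.

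**Figure D4:**
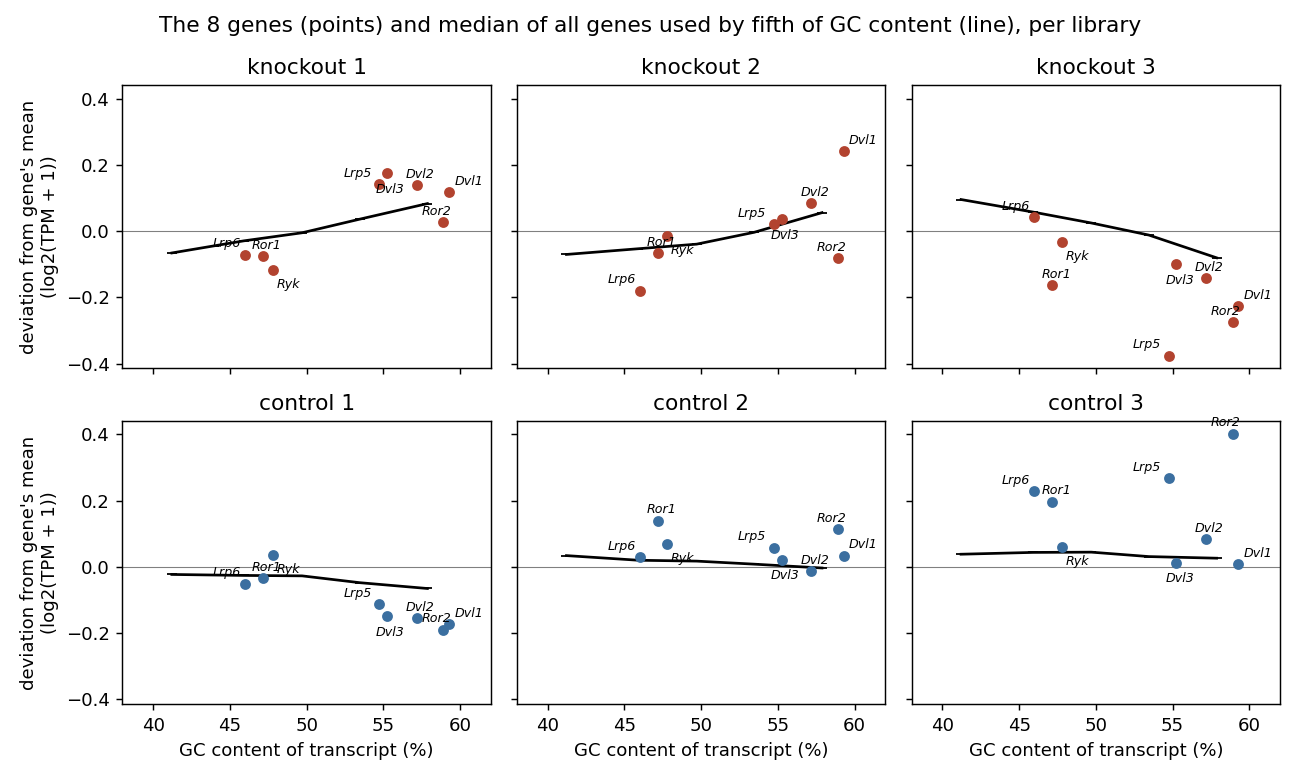
Log2 deviation of each gene from its mean over the 6 libraries (vertical axis) by GC content of its transcript (horizontal axis, percent), with knockouts above and controls below; points are the 8 genes and the line joins the medians of 5 classes of all genes used. The line climbs to 0.083 in knockout 1 and drops to -0.081 in knockout 3, and Dvl1, Dvl2 and Ror2 stand at the right of each panel.

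With this trend taken off each library, an alternative chosen after seeing the data, the replicates of most of the 8 genes lay closer together. The median SD in log2 over the 8 genes was 0.0981 among knockouts and 0.0615 among controls, against 0.143 among knockouts and 0.120 among controls as deposited. The SD was smaller for 6 of 8 genes among knockouts and for 8 of 8 among controls. Among knockouts it rose for Ror1, from 0.053 to 0.123, and for Ryk, from 0.055 to 0.065. A trend fitted to each library lowers the spread between libraries on average over the genes used. A smaller SD for these 8 genes therefore says nothing of how well the trend suits them. The same SD over all tested genes was not computed. The differences between groups were then -0.06 for Lrp5, -0.03 for Lrp6, -0.13 for Ror1, -0.23 for Ror2, -0.09 for Ryk, 0.09 for Dvl1, 0.08 for Dvl2 and 0.09 for Dvl3. Each gene kept its direction, and 0 genes passed (smallest limma adjusted p = 0.428, for Ror2), where 0.746% of 17154 genes did. Ror1 lost its unadjusted p under 0.05 (limma adjusted p = 0.482, 95% interval -0.30 to 0.033), while the interval of Ror2 narrowed to -0.48 to 0.025. The median difference over the 8 genes was -0.12 as deposited and -0.045 with the trend taken off, against -0.0075 over all genes tested as deposited and 0.0058 over all genes with the trend taken off. The median absolute difference was 0.12 over the 8 genes, 0.12 over all genes tested and 0.085 over those of 25 to 150 TPM.

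Around the 8 genes, 2 of the 73 tested partner genes passed limma's test, where 0.444% of all genes tested did. Both were lower in knockouts. The authors' deposited table calls 9 of the partner genes, 8 lower and 1 higher in knockouts. Of all the genes it gives an adjusted p, it calls 3.55%. The lists hold 75 distinct genes, of which Sost was under the filter and Musk was not analysed here. Of 19 tested partners of Lrp5 and Lrp6, 0 were higher and 1 was lower, Apcdd1, a membrane protein that binds Wnt and Lrp5 and dampens the signal. Apcdd1 had 19.6, 17.2 and 19.1 TPM in knockouts, against 40.5, 41.2 and 41.1 TPM in controls. Every knockout was below every control by a wide gap (log2 difference -1.10, SE 0.085, limma adjusted p = 0.00341), and Apcdd1 passed in 16 of 16 alternatives. The most abundant partners that did not pass were Csnk1g2, a membrane-bound casein kinase that phosphorylates Lrp6, with 172 ± 28.2 TPM in knockouts and 163 ± 16.9 TPM in controls, and Dab2, an endocytic adaptor, with 117 ± 11.6 TPM in knockouts and 119 ± 2.43 TPM in controls (SD, n = 3 each). Before adjustment 4 of the 19 had p under 0.05, where 11.3% of all genes tested did, and the same background holds for the lists below. Besides Apcdd1 these were Mesd, the chaperone of both co-receptors (log2 difference -0.17), Gprc5b (-0.44) and Kremen2, a Dickkopf receptor (-0.54). From this list the authors' deposited table calls Apcdd1 and Gprc5b (adjusted p of 0.0144 for Gprc5b).

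Among 16 tested partners of Ror and Ryk, 0 were higher and 1 was lower, Wnt5a, the ligand of Ror2. Wnt5a had 102, 115 and 126 TPM in knockouts, against 163, 164 and 161 TPM in controls. The controls were within a few TPM of each other and all above the knockouts (log2 difference -0.51, SE 0.080, limma adjusted p = 0.0467). This call was lost in 11 of 16 alternatives, among them 5 of the 6 that leave out a library, all but that without knockout 3, with limma adjusted p of 0.00704 to 0.226 over all 16. The log2 difference stayed between -0.58 and -0.42 in all 16. The authors' deposited table gives Wnt5a an adjusted p of 2.9e-07 and also calls Vangl1 and Cthrc1 (adjusted p of 0.00425 and 0.0259). Flna, an actin cross-linker that binds Ror2, had 367 ± 30.3 TPM in knockouts and 375 ± 39.7 TPM in controls, and Ptk7, a pseudokinase co-receptor, had 317 ± 19.5 TPM in knockouts and 374 ± 31.1 TPM in controls (SD, n = 3 each). Neither passed (limma adjusted p = 0.938 and 0.302). Before adjustment 5 of the 16 had p under 0.05, namely Wnt5a, Ptk7 (log2 difference -0.23), Fzd7 (0.17), Cthrc1 (-0.32) and Vangl1 (-0.40). With the trend on GC content and length taken off, Cthrc1, a secreted protein that favours Wnt binding to Ror2 and Frizzled, passed and Wnt5a did not (limma adjusted p = 0.0497 and 0.0712).

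Of 24 tested Dishevelled partners, 0 passed limma's test in either direction. Rac1, a small GTPase downstream of Dishevelled, had 200.1 ± 4.32 TPM in knockouts and 209.6 ± 11.0 TPM in controls, and the kinase gene Csnk1d had 163 ± 6.66 TPM in knockouts and 174 ± 15.5 TPM in controls (SD, n = 3 each). Before adjustment 3 of the 24 had p under 0.05. Nkd1 and Nkd2, inhibitors that bind Dishevelled, had log2 differences of -0.24 and -0.71, and Dact1, another Dishevelled binder, had 0.45 (adjusted p by limma 0.257, 0.0550 and 0.307). Nkd2 and Dact1 pass in the authors' deposited table, with adjusted p of 2.8e-06 and 0.0152. The list of the beta-catenin destruction complex and nuclear effectors had 17 tested genes, of which 0 passed limma's test. Ctnnb1, the gene of beta-catenin, had 655, 653 and 678 TPM in knockouts, against 654, 664 and 763 TPM in controls. Csnk1a1, its priming kinase, had 170.2 ± 5.84 TPM in knockouts and 174 ± 7.03 TPM in controls (SD, n = 3 each). Before adjustment 3 of the 17 had p under 0.05, Tcf7 (log2 difference -0.45), Axin2 (-0.36) and Lef1 (-0.32), with limma adjusted p of 0.0929, 0.201 and 0.323. Of these, Tcf7 and Axin2 pass in the authors' deposited table, with adjusted p of 0.000189 and 0.00761. The median log2 differences were -0.068 for the Lrp list, -0.083 for the Ror and Ryk list, -0.0039 for the Dishevelled list and -0.050 for the destruction complex list, beside -0.0075 over all genes tested. With the trend on GC content and length taken off, the medians were 0.014, -0.059, 0.033 and -0.011 in the same order of lists, beside 0.0058 over all genes, so the Lrp and Dishevelled lists turned sign. Genes named here only for an unadjusted p under 0.05 were chosen after their values were seen.

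**Figure D5:**
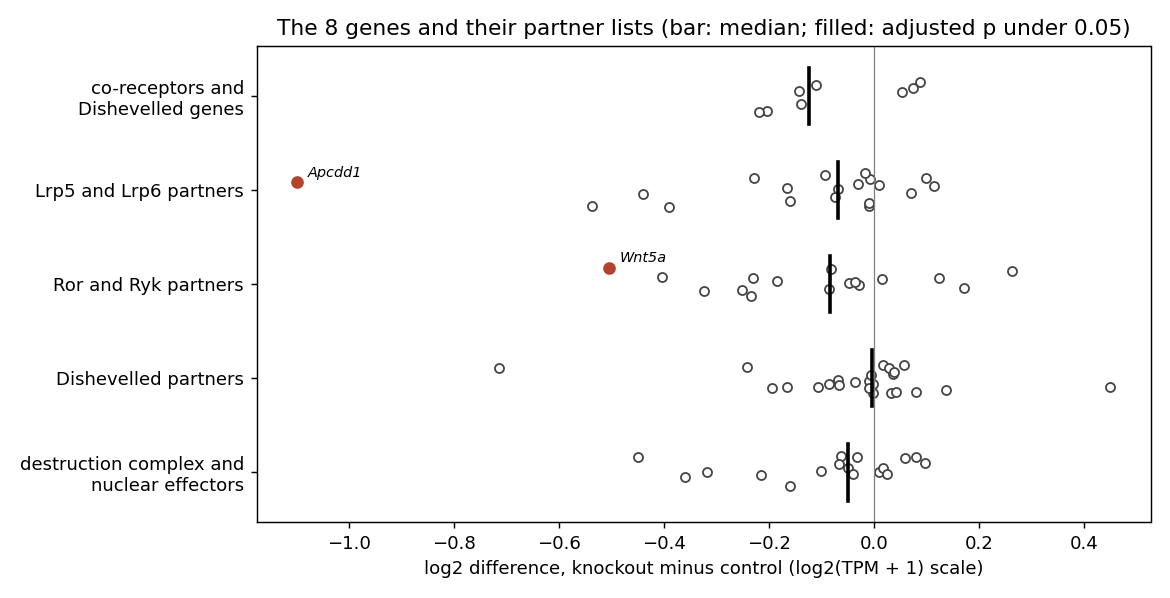
Log2 difference, knockout minus control, on the log2(TPM + 1) scale (horizontal axis) for the 8 genes and the tested genes of 4 partner lists; each point is a gene, the bar is the median and filled points passed limma's adjusted p of 0.05. Apcdd1 at -1.10 and Wnt5a at -0.51 are the filled points, and the 8 genes all lie between -0.22 and 0.087.

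The tested genes whose values over the 6 libraries were most like those of Ror1 included Rassf9 and Nxn. Likeness was the mean absolute difference between centred log2(TPM + 1) values, which was 0.0185 for Rassf9 and 0.0209 for Nxn. Rassf9 had 9.62, 9.27 and 8.91 TPM in knockouts, against 9.95, 11.1 and 11.8 TPM in controls. As for Ror1, knockout 3 was the lowest library and control 3 the highest. An order by this measure rests on 6 libraries and is given as a description.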

How the data were processed

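Poly(A) RNA of 6 mesonephroi, 1 per embryo, was sequenced as paired reads, per the labels' protocols. The submitters' processing notes name the mouse build GRCm39 and DESeq2; for the aligner, counter, strand setting and annotation, nothing is given in the sources used here. The authors deposited 1 TPM column per embryo, per the file headers, which scales each gene by its length and each library to the same sum. The authors also deposited a log2 fold change of knockout over control with its p-value and adjusted p-value, quoted only where named; the adjusted p is empty for 1175 genes.

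From the TPM, limma 3.58.1 in R 4.3.3 was fitted to log2(TPM + 1) with genotype as its term and a mean-variance trend. Genes under 1 TPM in more than 3 libraries were left out, all 8 genes described passed, and p-values were adjusted by the Benjamini-Hochberg method over 17577 genes with 0.05 as the threshold. Differences on this scale understate the change of low genes. The steps were tested on simulated data. The 8 genes, the partner and marker lists and the alternatives were chosen with earlier results of these data known, and no list was given a test of its own. Named were Wnt9b, the 8 genes, partners past the test, the 2 most abundant others of each list, markers past the test, and the 3 genes most like the member with the smallest p, apart from items not reported here.

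Reads recovered from ratios of TPM between libraries came out whole within 0.02 reads for 20030 of 20033 genes. They give lower bounds of 27914871 to 32384226 reads per library and of 1472 (Ror2) to 5993 (Lrp6) reads per library for the 8 genes, a counting error of at most 1.29% to 2.61% per library. The coefficient of variation between embryos was above it in 15 of 16 pairs of gene and group, all but Ryk in controls. Whole numbers are known only up to a factor shared by the libraries. Other settings tried were median-of-ratios or upper-quartile scaling, removal of erythroid markers, no filter, a pseudocount of 0.1, no mean-variance trend, a replicate block and each library left out. Chosen after seeing the data were limma-voom on the recovered reads and a trend on GC content and length, taken off each library with the transcripts of GENCODE M21, which gave values for 97.6% of tested genes.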

Additional observations from a re-analysis of the deposited data

How the results depend on the processing

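None of the 8 genes passed in any of the 16 alternatives, and 4 of their 128 alternative values changed sign. Leaving out 1 library gave -0.25 to 0.0096 for Lrp5, -0.012 to 0.22 for Dvl1 and -0.0098 to 0.14 for Dvl2. Without changing sign it gave -0.20 (without control 1) to -0.058 (without control 3) for Lrp6, and -0.37 to -0.072 (the same libraries) for Ror2. For Dvl3 it gave 0.0059 (without knockout 1) to 0.14 (without knockout 3), also without a change of sign. Ror1 (-0.27 to -0.155) and Ryk (-0.13 to -0.078) kept their sign as well. Over all genes, 78 passed; the number was 28 without the mean-variance trend, 284 by limma-voom and 128 with the GC and length trend taken off. It was 28, 13 and 14 without controls 1 to 3 and 30, 22 and 242 without knockouts 1 to 3. For the partner genes, 2 passed; 1 did (Apcdd1) without the mean-variance trend, with median-of-ratios scaling or with a pseudocount of 0.1, and 4 did by limma-voom (with Nkd2 and Tcf7). Leaving out 1 library gave 1 to 4 partners, with 4 (Dact1 and Nkd2 added) without knockout 3. With the mouse number as a replicate block, 17 genes and 1 partner passed. With the GC and length trend also taken off, 20 and 1 did. The labels do not say whether the numbers pair the embryos. Same-numbered libraries deviated with correlations of -0.23, 0.20 and -0.19 over 6074 genes, and knockout 1 with control 3 had 0.36. These correlations cannot settle it, since the libraries also differ in their trends on GC content and length. Signs also turned for abundant partners near 0. Dab2 was 0.00042 by limma-voom, 0.035 with the trend off (with or without the block) and -0.095 to 0.040 with 1 library left out; Flna was 0.053 and -0.096 to 0.052, and Csnk1a1 was 0.0070 with the trend off. Csnk1g2 ran from -0.011 to 0.21 and Ctnnb1 from -0.10 to 0.0076 with 1 library left out. The causes were not tested. With 3 embryos a group, differences within the interval given for each of the 8 genes are not excluded. From the deposited TPM, only the interval of Ror1 (-0.38 to -0.025) left out 0. Ror1 did not pass after adjustment (limma adjusted p = 0.376).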
